A study of Mus musculus with 4 samples.

Results

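Genes of cholesterol and fatty acid synthesis were examined in the leukemic blasts of 2 mice, in the peripheral blood and in the spleen. The group holds 33 listed genes: 18 enzymes of the sterol route, 4 regulators of it and 11 enzymes that make, lengthen, desaturate or activate fatty acids. Membership was set by gene name, and every probe set that the array annotation pairs with a single member was taken. Of the 33 genes, 32 had such a probe set, 75 probe sets in all among the 45101 on the array, and the expression of Acat2 was not analysed here. Of the 32, 28 were bright enough to be tested together with 11614 genes in all: 14 sterol enzymes, the 4 regulators and 10 fatty acid enzymes. Pmvk, Mvd, Tm7sf2 and Scd1 were too dim.

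The cells were blasts of an M7 (megakaryoblastic) leukemia that arose from fetal progenitors with the Gata1 mutant Gata1s after insertional mutagenesis with a retrovirus, which also tagged them with GFP. Both tissues therefore shared the Gata1 mutation, the retrovirus and its GFP reporter, and no control sample of normal cells was analysed here. Peripheral blood and spleen gave 2 arrays each, 1 from each mouse, and the blasts were sorted as GFP-positive, without culture or treatment. Both mice bear the same leukemia designation, T6(6), so the spread between replicates is that between 2 animals with 1 named leukemia. The animals' age and strain are not given in the sources used here.

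Animal cells build cholesterol from acetyl-CoA through mevalonate, isoprenoids, squalene and lanosterol, and most enzymes of the route are switched on together when the membrane of the endoplasmic reticulum is low in sterol. The switch is SREBP-2, the product of Srebf2, which the escort protein Scap carries to the Golgi for cleavage and which Insig1 holds back when sterol is plentiful. SREBP-1, from Srebf1, drives the fatty acid arm more strongly: Acly supplies acetyl-CoA, Acaca and Fasn build palmitate, Elovl enzymes lengthen chains, and Scd and Fads enzymes place double bonds. Proliferating blood cells draw on both arms for new membrane.

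The 4 arrays had median intensities between 103.7 and 110.6, and their log2 values correlated at r between 0.96 and 0.98 across the tested genes, which are not independent replicates. Of 13 listed megakaryocyte markers 10 were bright enough to test: the mean intensity of Pf4 was 8074, of Itga2b 4496 and of Vwf 2044, while that of Itgb3 was 43.5, below the brightness filter. Granulocyte markers, 9 of 13 bright enough to test, summed to intensities of 6869 and 16830.5 in blood of mouse 1 and mouse 2 and to 4225 and 1264 in spleen, and Camp was at -6.46 in spleen of mouse 2. Macrophage and monocyte markers, 8 of 11 tested, summed to 1641 and 3608 in blood and to 2076 and 1241.5 in spleen, and C1qa was below 0 on every array except spleen of mouse 1, where it was 132. T and NK cell markers, 10 of 12 tested, summed to 7060 and 10275 in blood and to 8514 and 5073.5 in spleen. The brightest genes weigh most in such sums: in mouse 2 Gzma went from 3486 in blood to 171 in spleen. Cd3e went from 180 to 183 there and Cd4 from 382 to 375. In such bulk samples, fewer cells of a type and less RNA per cell cannot be told apart.

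No member passed the test for a difference between spleen and blood. With limma and Benjamini-Hochberg adjustment over all 11614 genes, 0 of 28 tested members and 0 of all tested genes (0.0%) had an adjusted p under 0.05. Without adjustment 2 members were below 0.05 in the limma fit, Scd2 and Fads2, both higher in spleen, where 8.12% of all tested genes were so higher and 4.31% lower. These shares moved with the scaling: 943 genes were higher and 500 lower as deposited, against 765 and 602 with quantile normalization and 1310 and 354 after centring the arrays. The smallest two-sided p that an exact permutation test of 2 arrays against 2 can give is 0.333, so no single gene could pass it. In what follows a difference is spleen minus blood on the log2 scale of intensity plus 16, with negative intensities set to 0, which understates the change of dim genes, and errors of differences are standard errors (SE) of the limma fit with 2 arrays per tissue.

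The arms were counted within each mouse. Of the 10 tested fatty acid enzymes, 8 were higher in spleen in both mice, 1 lower in both and 1 differed in direction between the mice. Of the 14 tested sterol enzymes, 5 were higher in both, 2 lower in both and 7 of opposite direction. Over all 28 members 14 were higher in spleen in both mice, against 38.5% of all tested genes, and 4 were lower, against 25.1%. Both spleen arrays lay above both blood arrays for 11 members, where 27.5% of all tested genes did so, and below them for 2 members, where 17.6% did. With no brightness filter, over the 32 measured members, 15 were higher in both mice and 5 lower, against 32.9% and 26.7% of all measured genes. With quantile normalization the fatty acid enzymes higher in both mice numbered 6 of 10 and the sterol enzymes 7 of 14, while 34.3% of all genes were higher and 30.6% lower. With centred arrays 47.2% of all genes were higher in both mice and 19.6% lower, and 17 and 3 of the 28 members.

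**Figure D1:**
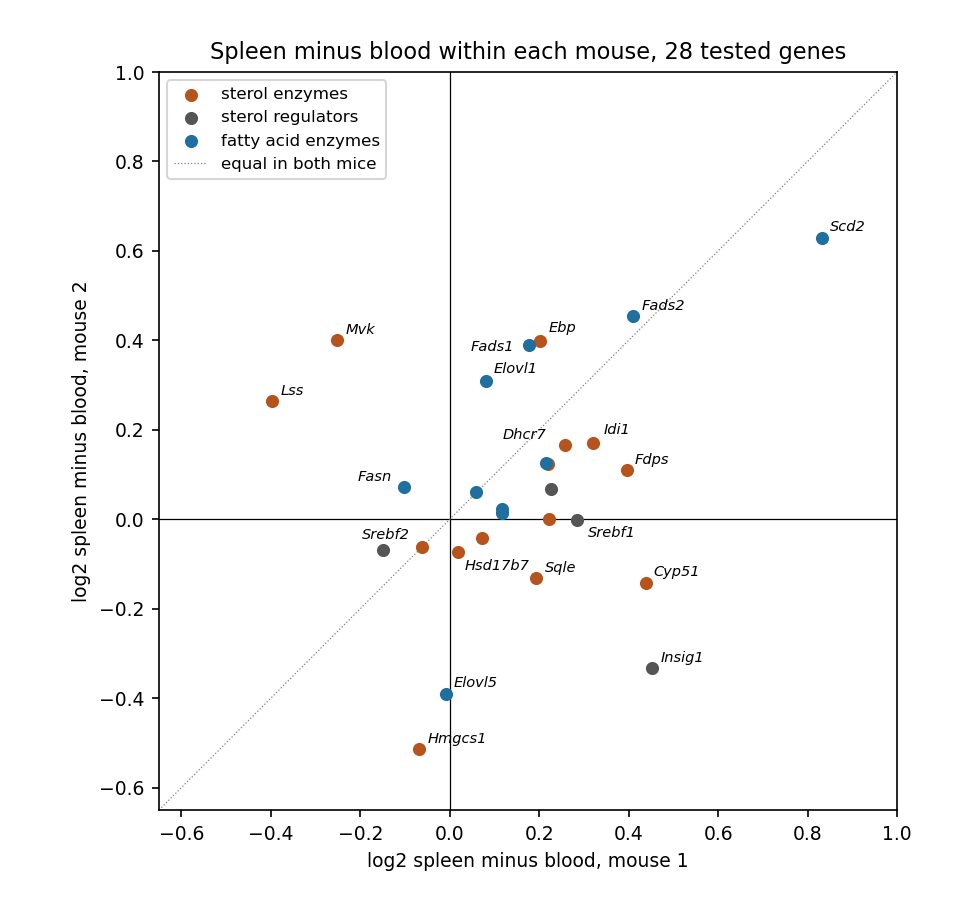
Log2 spleen minus blood in mouse 1 (horizontal) and mouse 2 (vertical) for the 28 tested genes, coloured by arm, 1 point per gene. Scd2 and Fads2 lie highest on the diagonal, and Insig1, Cyp51 and Sqle are above 0 in mouse 1 and below 0 in mouse 2, as Mvk and Lss are the other way round.

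The median difference was 0.12 for the fatty acid enzymes and 0.092 for the sterol enzymes, and that of all tested genes was 0.029. In mouse 1 the median was 0.20 for sterol and 0.12 for fatty acid enzymes, and in mouse 2 it was 0.055 and 0.098. The order of the arms thus turned between the mice, and it also turned with quantile normalization, where the sterol median exceeded the fatty acid median by 0.0090, and without the spleen array of mouse 2, where it did so by 0.064. The sterol median was 0.17 without that array, 0.031 with the filter at the 75th percentile and 0.043 with the mean of all probe sets. The 4 regulators had a median of 0.26 in mouse 1 and of -0.035 in mouse 2. Most members differed by little more than their error: the median absolute difference was 0.14 and the median SE 0.13 over the 28 members, against 0.14 and 0.13 over all tested genes.

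Promoter sequences were compared because SREBP acts on DNA together with NF-Y and Sp1. RefSeq windows of mouse build GRCm38.p6, reduced to the 250 bases before each annotated start, were matched by symbol for 27 of the 33 members, Acat2 among them, 34 windows in all, and not for Fdps, Fdft1, Sqle, Scd1, Scd2 and Fads1. Motifs were searched on both strands. The sterol regulatory element, as TCACNCCAC, was found in 1 window, that of Hmgcs1, against 1.05% of all 32851 windows. CCAAT, the NF-Y motif, was in 14 of 18 windows of sterol enzymes, in 4 of 7 of regulators and in 3 of 9 of fatty acid enzymes, against 33.8% of all windows. GGGCGG, the Sp1 motif, was in 15 of 18, 5 of 7 and 5 of 9, against 32.7%, and the E-box CANNTG in 22 of 34, against 66.2%. A match of 1 of the first 3 motifs overlapped a match of another in 1 case over the 34 windows. Windows of a gene with several starts are not independent, and a match is a description of letters and not a binding site.

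Of the members whose tissues did not overlap, 4 windows are shown with the strand of the gene and with matches of the first 3 motifs in capitals on either strand. Fads2 (chr19:10101504-10101753, minus strand) and the sterol enzymes Ebp (chrX:8193513-8193762, minus strand) and Idi1 (chr13:8885356-8885605, plus strand) were higher in spleen. Hmgcs1 (chr13:119690101-119690350, plus strand) was lower, and its window holds the only match of the sterol regulatory element, which begins 137 bases before the start.
Fads2: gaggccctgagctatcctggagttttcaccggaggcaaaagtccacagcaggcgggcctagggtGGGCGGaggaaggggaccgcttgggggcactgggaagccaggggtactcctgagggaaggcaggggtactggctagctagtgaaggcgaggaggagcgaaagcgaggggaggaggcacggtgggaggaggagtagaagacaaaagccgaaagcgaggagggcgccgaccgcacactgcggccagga
Ebp: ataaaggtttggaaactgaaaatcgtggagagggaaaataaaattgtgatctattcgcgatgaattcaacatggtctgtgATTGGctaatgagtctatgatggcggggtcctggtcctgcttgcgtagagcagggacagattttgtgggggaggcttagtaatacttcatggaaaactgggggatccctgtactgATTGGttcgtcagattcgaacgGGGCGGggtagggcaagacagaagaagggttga
Idi1: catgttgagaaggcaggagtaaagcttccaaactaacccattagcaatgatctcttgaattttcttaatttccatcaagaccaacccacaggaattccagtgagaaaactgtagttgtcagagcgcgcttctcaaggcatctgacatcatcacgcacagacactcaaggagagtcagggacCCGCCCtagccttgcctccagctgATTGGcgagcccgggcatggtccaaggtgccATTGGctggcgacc
Hmgcs1: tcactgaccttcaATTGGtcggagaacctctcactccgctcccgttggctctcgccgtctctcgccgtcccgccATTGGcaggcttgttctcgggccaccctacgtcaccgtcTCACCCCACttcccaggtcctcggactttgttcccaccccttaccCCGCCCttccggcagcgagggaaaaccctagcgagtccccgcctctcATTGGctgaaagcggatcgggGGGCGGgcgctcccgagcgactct

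In these windows Fads2 has 1 match of GGGCGG and 0 of CCAAT, Ebp and Idi1 have 2 of CCAAT and 1 of GGGCGG each, and Hmgcs1 has 3 of CCAAT and 2 of GGGCGG beside the sterol element.

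Both arms were represented above the filter. Of the sterol enzymes 14 of 17 and of the fatty acid enzymes 10 of 11 reached the filter of 106, the median intensity of all probe sets. Probe sets differ in how brightly they bind, so the levels of different genes are not ranked.

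**Figure D2:**
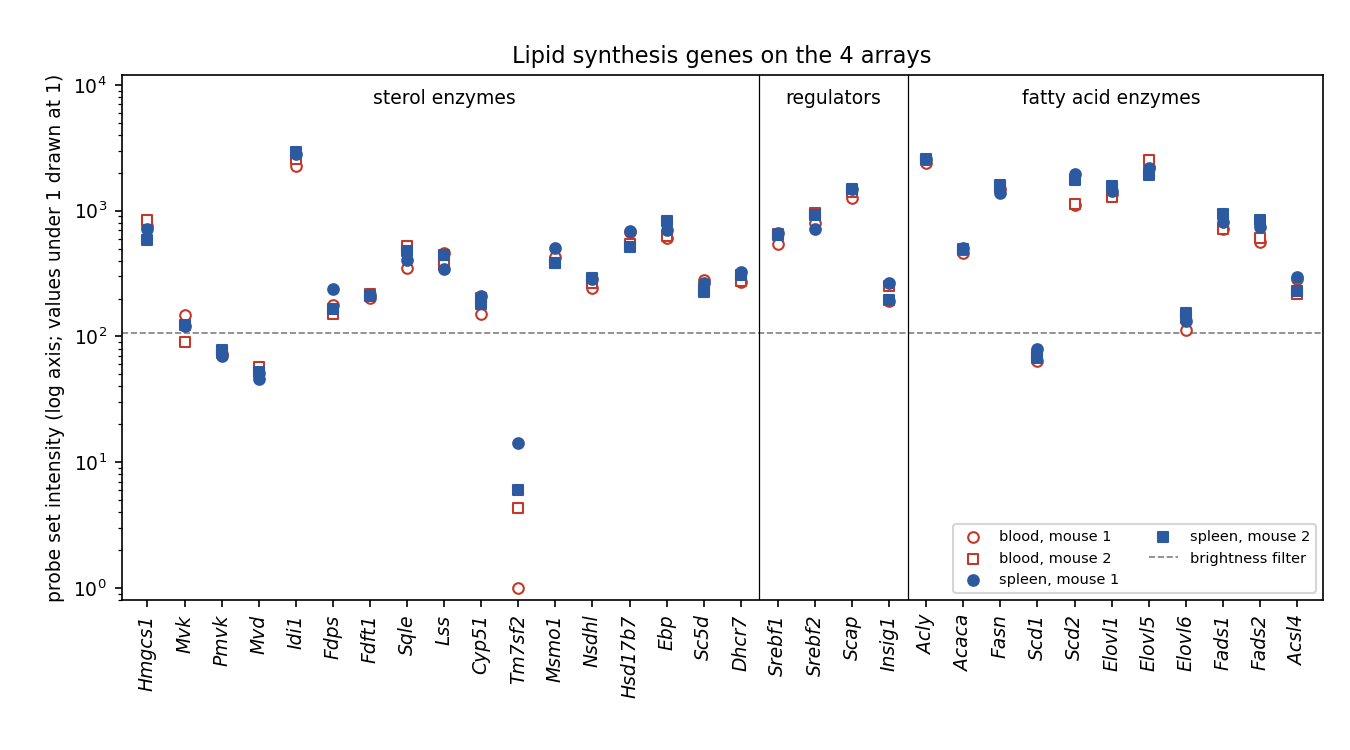
Intensity of the main probe set of the 32 measured genes (log axis, values under 1 drawn at 1) on each of the 4 arrays, with sterol enzymes at the left, regulators in the middle and fatty acid enzymes at the right. The dashed line is the brightness filter of 106, below which lie Pmvk, Mvd, Tm7sf2 and Scd1, and the spleen arrays of Scd2 stand clear of its blood arrays.

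The largest difference of the 28 members was in the fatty acid arm. Scd2, a stearoyl-CoA desaturase that makes monounsaturated fatty acids, had intensities of 1101 and 1136 in blood and of 1971 and 1767 in spleen of mouse 1 and mouse 2. Both spleen arrays lay above both blood arrays, and the blood arrays differed from each other by little. The difference was 0.83 in mouse 1, 0.63 in mouse 2 and 0.73 ± 0.12 (SE) over both, a 1.66-fold higher level, with a limma adjusted p of 0.144. Among the 11614 genes Scd2 stood at place 80 when genes higher in spleen in both mice were ordered by the smaller of the 2 within-mouse differences. Its other probe sets pointed the same way, with differences of 0.76 and 1.08 in mouse 1 and mouse 2 for the next brightest and of 0.37 and 0.19 for the dimmest. Scd1, its neighbour on chromosome 19 with 1 protein-coding gene between them, stayed below the filter on every array, between 64.3 and 80.0.

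The Fads genes, which lie side by side on chromosome 19, encode the desaturases of polyunsaturated fatty acids. Fads2, the delta-6 desaturase, had intensities of 558 and 609 in blood and of 747 and 839 in spleen of mouse 1 and mouse 2. The tissues did not overlap, and the difference was 0.43 ± 0.12 with a limma adjusted p of 0.305. All 3 of its probe sets were higher in spleen in both mice. Fads1, the delta-5 desaturase, had 718 and 719 in blood and 814 and 947 in spleen, again without overlap, and differed by 0.28 ± 0.13 with a limma adjusted p of 0.431. Its second probe set, at intensities between 129 and 177, went the other way, by -0.13 and -0.35 in mouse 1 and mouse 2, so the direction of Fads1 depends on the probe set.

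The elongases did not share a direction. Elovl6, which lengthens palmitate, had intensities of 112 and 140.0 in blood and of 133 and 154 in spleen of mouse 1 and mouse 2, higher in spleen within each mouse for each of 3 probe sets. Its difference was 0.17 ± 0.15, and 2 of the 3 probe sets were below the filter. Elovl1, which makes very long chains, had 1346 and 1275 in blood and 1424 and 1583 in spleen, and differed by 0.19 ± 0.12. The other 3 probe sets of Elovl1 were higher in spleen of mouse 1 and lower in spleen of mouse 2. Elovl5, which lengthens polyunsaturated fatty acids, had 2205 and 2507 in blood and 2191 and 1910.2 in spleen. In mouse 1 its tissues were nearly equal, at a difference of -0.0094, whereas mouse 2 gave -0.39. Its second probe set was higher in spleen of mouse 1 by 0.12 and differed by -0.46 in mouse 2, so that only 1 of its 2 probe sets was lower in both mice.

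The enzymes at the entry of the arm differed between the tissues by less than their SE. Acly, the ATP citrate lyase, had intensities of 2386 and 2542 in blood and of 2588 and 2567 in spleen of mouse 1 and mouse 2, a difference of 0.065 ± 0.11 that was -0.015 with quantile normalization. Of its 6 probe sets 5 were higher in spleen in both mice. Acaca, the acetyl-CoA carboxylase, had 464 and 483 in blood and 504 and 492 in spleen, a difference of 0.071 ± 0.11 that was -0.14 with the mean of its probe sets. Fasn, the fatty acid synthase, had 1482 and 1535 in blood and 1379 and 1614 in spleen, and its difference of -0.016 was 0.028 with centred arrays. Acsl4, which activates arachidonic acid for incorporation into lipids, differed more between the animals than between the tissues: it had 286 and 217 in blood and 298 and 228 in spleen of mouse 1 and mouse 2.

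Over all probe sets of the fatty acid enzymes, 31 in number, 19 were higher in spleen in both mice, 4 lower in both and 8 of opposite direction. Of all 34945 probe sets of a single gene, 32.5% were higher in both mice and 26.7% lower. The 38 of the sterol enzymes divided into 10, 8 and 20, and the 6 of the regulators into 1, 3 and 2. Probe sets of 1 gene are not independent of each other, and 48 of the 75 were above the brightness filter. Above it 15 of the 21 fatty acid probe sets were higher in both mice, 5 of them of Acly and 3 of Scd2, against 39.9% of all probe sets there. Of the 22 sterol enzyme probe sets above it, 6 were higher in both mice and 5 lower.

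**Figure D3:**
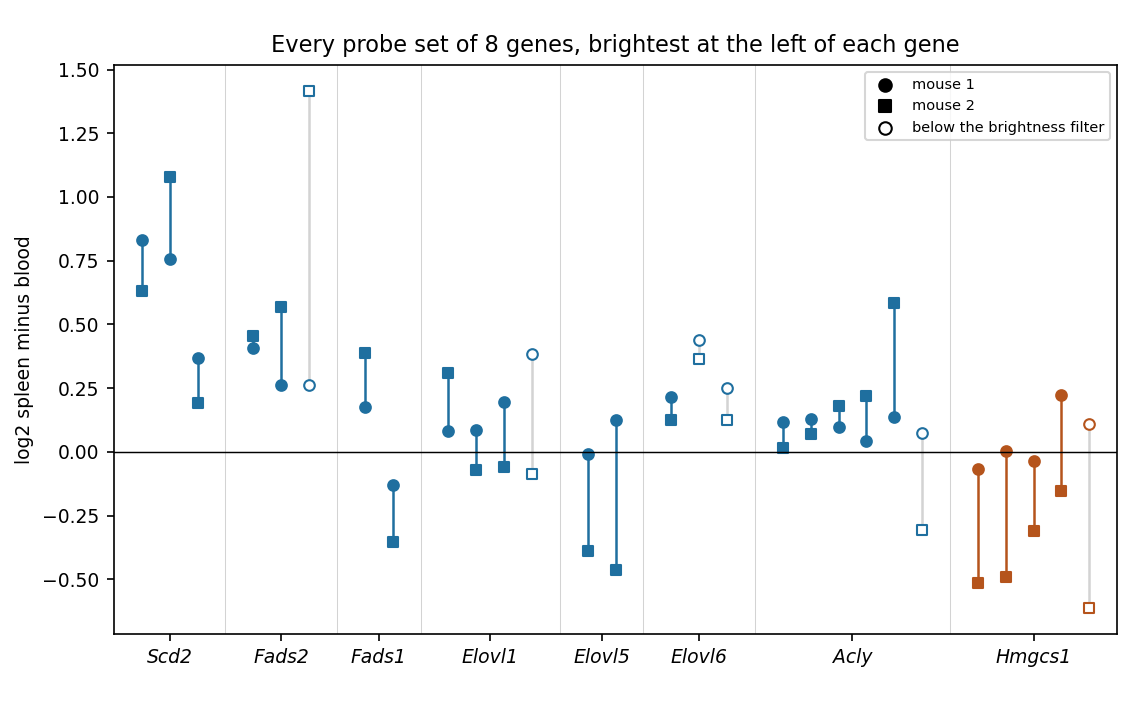
Log2 spleen minus blood of every probe set of Scd2, Fads2, Fads1, Elovl1, Elovl5, Elovl6, Acly and Hmgcs1, with circles for mouse 1 and squares for mouse 2, a line joining the mice, and open symbols for probe sets below the brightness filter. All 3 probe sets of Scd2, of Fads2 and of Elovl6 lie above 0 in both mice, and the 2 probe sets of Fads1 lie on opposite sides of 0.

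In the sterol arm the sign of the difference varied along the route. Hmgcs1, the cytosolic HMG-CoA synthase that feeds the mevalonate route, had intensities of 751 and 848 in blood and of 715 and 589 in spleen of mouse 1 and mouse 2. Both spleen arrays lay below both blood arrays. The difference was -0.069 in mouse 1 and -0.51 in mouse 2, or -0.29 ± 0.14 over both with a limma adjusted p of 0.466, so most of it came from mouse 2. All 5 probe sets of Hmgcs1 were lower in spleen of mouse 2, from -0.15 to -0.61, while those of mouse 1 lay between -0.069 and 0.22. Hmgcs1 and Elovl5 were the 2 members that stood highest in blood and lowest in spleen of mouse 2, as 11.9% of all tested genes did. At the summed intensities given above, the granulocyte, the macrophage and monocyte, and the T and NK cell markers had that order too. Single markers did not all share it: Cxcr2, Vcam1, Slc40a1, Cd3e, Cd3g, Cd4 and Cd8a were not highest in blood of mouse 2. Cd3e had 288 and 180 in blood and 238 and 183 in spleen of mouse 1 and mouse 2, and Slc40a1 had 21.9 and 119 in blood and 348 and 124 in spleen. The part of any of these cell types in the values of Hmgcs1 and Elovl5 was not tested.

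Next in the route, Mvk, the mevalonate kinase, differed by -0.25 in mouse 1 and 0.40 in mouse 2. Pmvk and Mvd, which complete the conversion to isopentenyl diphosphate, stayed between 70.0 and 77.6 and between 46.1 and 57.0, under the filter on every array. Idi1, the isomerase of isopentenyl diphosphate, had intensities of 2273 and 2585 in blood and of 2844 and 2913 in spleen of mouse 1 and mouse 2. Its tissues did not overlap, both of its probe sets were higher in spleen in both mice, and the difference was 0.25 ± 0.12 with a limma adjusted p of 0.466. Fdps, which joins isoprene units into farnesyl diphosphate, had 176 and 150.5 in blood and 237 and 164 in spleen, so that its tissues overlapped, and its other probe set differed by -0.40 in mouse 1. Fdft1, the squalene synthase, stayed between 201 and 216 on all 4 arrays.

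Sqle, Lss and Cyp51, which act in turn on squalene, its epoxide and lanosterol, differed in opposite directions in the 2 mice. Sqle, the squalene epoxidase, had a blood and a spleen intensity of 352 and 405 in mouse 1, and of 522 and 475 in mouse 2, so that both arrays of mouse 2 exceeded both of mouse 1. Lss, the lanosterol synthase, went from 461 in blood to 347 in spleen of mouse 1 and from 367 to 445 in mouse 2. Cyp51, the lanosterol demethylase, went from 151 to 210.0 in mouse 1 and from 202 to 182 in mouse 2. For each of the 3 the within-mouse differences cancelled to a mean between -0.066 and 0.15, which was smaller than the SE in each case. Msmo1, the methylsterol oxidase, was higher in spleen of mouse 1 by 0.22 and equal in the tissues of mouse 2, at 381 on both arrays, and its mean difference of 0.11 was -0.10 with the mean of its probe sets.

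Of the later steps, Ebp, Dhcr7 and Nsdhl were higher in spleen in both mice, while Hsd17b7 and Sc5d were not. Among the tested sterol enzymes 35.7% were higher in both mice, against 38.5% of all tested genes. Ebp, the sterol isomerase, had intensities of 607 and 629 in blood and of 701 and 835 in spleen of mouse 1 and mouse 2, without overlap. The difference was 0.30 ± 0.13, the largest of the tested sterol enzymes, with a limma adjusted p of 0.424. Dhcr7, which makes cholesterol from its last precursor, had 270.2 and 274 in blood and 326 and 309 in spleen, a difference of 0.21 ± 0.11, and Nsdhl, a dehydrogenase of the demethylation, differed by 0.17 ± 0.11, both without overlap. Hsd17b7, a ketosterol reductase, and Sc5d, a desaturase of the ring, differed by -0.027 (0.017 with centred arrays) and -0.062, with higher values in both tissues of mouse 1 than in mouse 2.

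**Figure D4:**
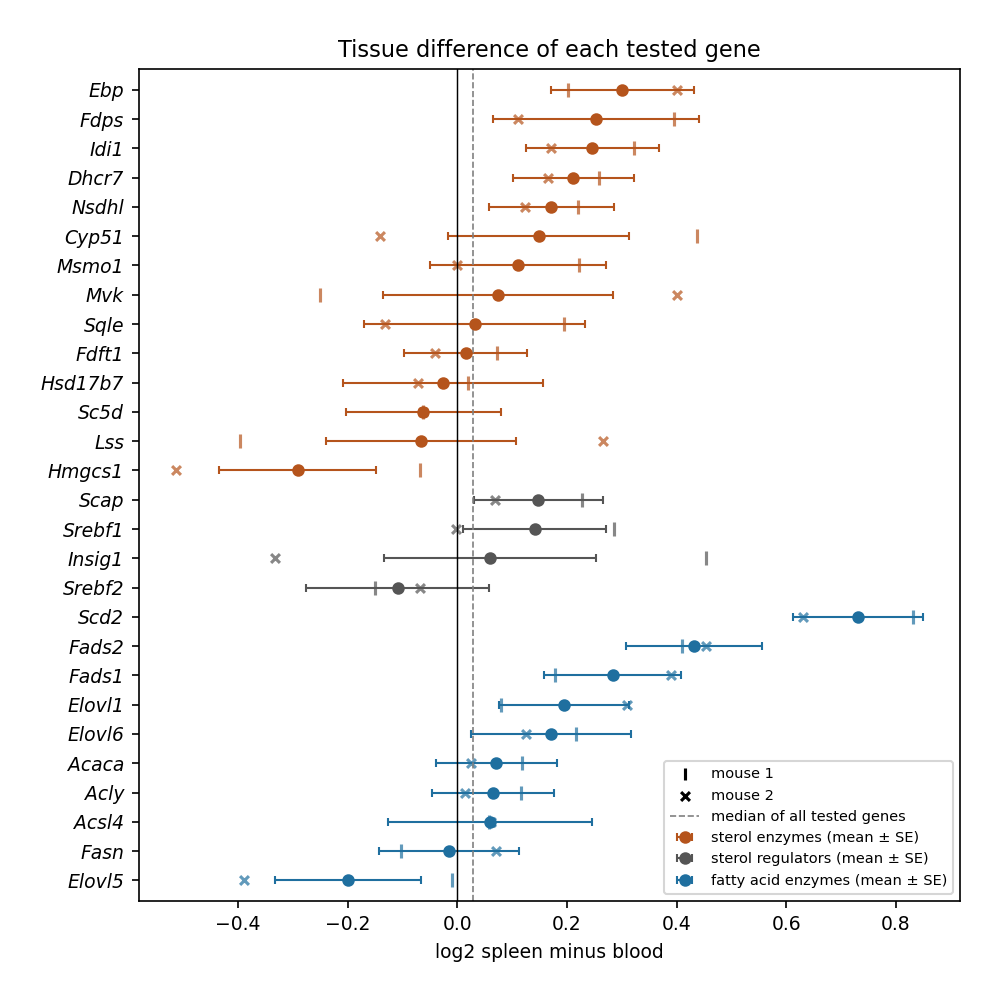
Mean log2 spleen minus blood with its SE from the limma fit for the 28 tested genes, grouped by arm and ordered within it, with the values of mouse 1 (bars) and mouse 2 (crosses) and the median of all tested genes, 0.029, as a dashed line. Scd2 at 0.73 and Fads2 at 0.43 lie farthest to the right and Hmgcs1 at -0.29 farthest to the left.

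Among the regulators, Insig1, which is itself a target of SREBP, went from 191 in blood to 267 in spleen of mouse 1 and from 251 to 196 in mouse 2. The differences of 0.45 and -0.33 were the most opposed of the 4, and the mean was 0.060 ± 0.19. Srebf1 went from 542 to 664 in mouse 1 and from 646 to 645 in mouse 2, so that only blood of mouse 1 stood apart. Srebf2 had 795 and 962 in blood and 715 and 917 in spleen of mouse 1 and mouse 2, a difference of -0.11 ± 0.17. Both of its probe sets were lower in spleen in both mice, the second by a difference of -0.22 in mouse 1 and -0.0048 in mouse 2. The main probe set was brighter in mouse 2 in both tissues, which the second, at 630.1 and 563 in blood, was not. Scap had 1258 and 1406 in blood and 1475 and 1474 in spleen of mouse 1 and mouse 2, a difference of 0.15 ± 0.12 without overlap that was -0.014 with the mean of its probe sets.

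Across the members, blood of mouse 1 was the lowest of the 4 arrays for 16 of 28 genes, where it was lowest for 27.4% of all tested genes. After quantile normalization it was lowest for 15, against 22.2%, and after centring for 16, against 34.9%. Spleen of mouse 1 was the highest array for 12 members, against 32.8% of all genes, and for 6 with quantile normalization, against 22.3%. Spleen of mouse 2 was the highest for 8, against 25.0%, and for 12 with quantile normalization, against 30.5%, and 14 with centred arrays, against 35.6%. Between the animals, with 1 mouse a side and no test, the median of mouse 2 minus mouse 1 over the 28 members was 0.074 in blood and -0.017 in spleen. Mvk in blood, at -0.62, and Sqle in blood, at 0.55, differed most between the mice.

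Other gene groups differed between the same arrays. The 19 tested of 20 listed mitosis genes were all higher in both mice, with a median difference of 0.83, and their intensities summed to 16572 and 17458 in blood and to 26557 and 29483 in spleen of mouse 1 and mouse 2. Spleen also exceeded blood within each mouse for 8 of the 10 tested megakaryocyte markers, which had a median difference of 0.53. Their differences ran from -0.053 for Tubb1 to 1.61 for Treml1, with Pf4 at 0.16 and Itga2b at 0.071. Of all tested genes 38.5% were higher in both mice, with a median difference of 0.029. The part of the mitosis genes or the megakaryocyte markers in the values of Scd2, Fads2 and the other members was not tested.

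Genes around the pathway were read from lists that hold no member. Of 7 tested genes that cleave, hold or degrade SREBP and its partners, 5 were higher in spleen in both mice and 1 lower, with 0 past the adjusted threshold. Rnf139, a ubiquitin ligase of the endoplasmic reticulum, had intensities of 1619.9 and 1499 in blood and of 1944 and 1959.8 in spleen of mouse 1 and mouse 2, a difference of 0.32 ± 0.11, and Erlin1, a membrane protein that binds SREBP complexes, differed by 0.20 ± 0.11. Erlin2 differed by -0.081 ± 0.11. Of 9 tested genes that use isoprenoids, 6 were higher in both mice and 0 lower. Dhdds, which makes dolichol, differed by 0.36 ± 0.12 and Coq2, of ubiquinone synthesis, by 0.18 ± 0.11.

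Of 11 tested genes of sterol transport and efflux, 6 were higher in spleen in both mice and 3 lower. Stard4, a cytosolic sterol carrier, had intensities of 1942 and 1885 in blood and of 2486 and 2473 in spleen of mouse 1 and mouse 2, a difference of 0.37 ± 0.11 with a limma adjusted p of 0.313. Abcg1, a sterol exporter, differed by 0.27 ± 0.11, and the lysosomal lipase Lipa and the oxysterol-binding protein Osbp differed by -0.21 ± 0.15 and -0.20 ± 0.12. Of 18 tested genes of fatty acid supply, elongation and activation, 9 were higher in both mice and 4 lower. Hacd1, a dehydratase of the elongation cycle, had 570.4 and 613 in blood and 732 and 904 in spleen, a difference of 0.45 ± 0.14, and Me1, the malic enzyme that supplies NADPH, differed by 0.38 ± 0.12. Mlxipl, a glucose-responsive activator of lipid synthesis, and Scd3 were lower in both mice, with differences of -0.29 ± 0.12 and -0.24 ± 0.12. None of the genes of these 4 lists passed over all genes, and the shares of all tested genes are those given above.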

How the data were processed

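Gene expression was measured on 4 Affymetrix mouse arrays of sorted blasts. The authors deposited 1 intensity per probe set, on a linear scale, as their range and the values below 0 show. Total RNA was extracted with Trizol and labelled as biotinylated cRNA, per the labels' protocols. Their summarisation, background correction and scaling are not given in the sources used here.

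That scaling was kept. Negative values, between 1.60% and 2.17% of an array, counted as 0, and values were used as log2 after adding 16. Of 45101 probe sets, 34945 named 1 gene. Symbols were updated through a RefSeq table, and the brightest probe set stood for a gene. Genes with a mean at or above the median of all probe sets were tested with limma 3.58.1 (R 4.3.3) in a two-sided model of tissue alone, and p-values were adjusted over all tested genes. Arrays pair by mouse because the labels give 1 animal for both tissues; the difference between the mice in blood and in spleen correlated at r = 0.10 across genes. Mouse as a block was an alternative, as were other offsets, filters, scalings, probe set rules, an intensity trend and leaving out each array. P-values rest on the spread between the 2 arrays of a tissue, 1 from each animal, which limma moderates over all tested genes. Differences between animals and between arrays cannot be told apart in it, and the number of animals limits the precision.

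The members and lists were chosen with earlier results of these data known. Every member is accounted for. Those described in full were chosen by the size of the smaller within-mouse difference, by brightness or by having a paralog, and genes of other lists by the smaller within-mouse difference.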

Additional observations from a re-analysis of the deposited data

How the results depend on the processing

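Of 28 tested members, 13 kept the sign of their difference in every alternative run that held them: Hmgcs1, Idi1, Fdps, Nsdhl, Ebp, Dhcr7, Srebf1, Scd2, Elovl1, Elovl5, Elovl6, Fads1 and Fads2. The stricter filter and the mean of all probe sets left some members out, so a member had from 11 to 13 such runs. Values of 1 mouse alone are not among them, and Srebf1 differed by -0.0023 in mouse 2. The runs reuse the same 4 arrays, and the share of all tested genes that kept their sign is not given here. Signs turned with the mean of all probe sets for Msmo1 (-0.10), Scap (-0.014) and Acaca (-0.14), with quantile normalization for Acly (-0.015), and with centred arrays for Hsd17b7 (0.017) and Fasn (0.028). Leaving out 1 array turned others, with ranges of -0.24 to 0.39 for Mvk, -0.031 to 0.061 for Fdft1, -0.24 to 0.30 for Sqle, -0.24 to 0.11 for Lss, -0.046 to 0.34 for Cyp51, -0.080 to 0.30 for Msmo1, -0.23 to 0.17 for Hsd17b7, -0.17 to 0.049 for Sc5d, -0.28 to 0.067 for Srebf2, -0.15 to 0.27 for Insig1, -0.13 to 0.097 for Fasn and -0.13 to 0.25 for Acsl4. The cause was not tested.

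The number of genes past the threshold over all genes was 40 with the brightness filter at the 75th percentile, 45 with an intensity trend in limma and from 0 to 20 over the fits that leave out 1 array, with 20 without spleen replicate 1. Members past it were 0 throughout except for 1 with the intensity trend, Scd2, at a limma adjusted p of 0.049, where its adjusted p ran from 0.049 to 0.69 over the alternatives. The replicate block (mouse number) gave 0 genes and 0 members and changed no call. The median of the fatty acid enzymes was 0.096 with an offset of 64, 0.097 with no filter, 0.063 with the mean of all probe sets, 0.093 with quantile normalization, 0.16 with centred arrays and 0.17 with Acly among the sterol enzymes. It ran from 0.10 to 0.18 when 1 array was left out, and the sterol minus fatty acid difference from -0.11 to 0.064. With mouse 1 alone, chosen after seeing the data, the sterol median was 0.20 and the difference of the arms 0.081, and with mouse 2 alone the fatty acid median was 0.098. Members higher in both mice were 9 of 18 at the stricter filter, against 44.7% of all genes there, and members lower in both were 2 of 22 with the mean of all probe sets, against 25.7%. The sterol median ran from 0.070 to 0.17 when 1 array was left out, and was 0.031 at the stricter filter and 0.043 with the mean of all probe sets. Counts over both mice have no value where 1 array is left out. With only 2 arrays a tissue, differences about as large as the SE, near 0.13, were not resolved.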

Other observations

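Genes of fatty acid oxidation, the route opposite to synthesis, were read in the same way. Of 16 tested genes, spleen exceeded blood in both mice for 7, 2 were lower and 7 went opposite ways, with a median difference of 0.11 and 0 past the adjusted threshold in limma. Of all tested genes, 38.5% were higher in both mice and 25.1% lower, with a median difference of 0.029. Ppard, a nuclear receptor for fatty acids, had intensities of 331 and 349 in blood and of 449 and 477 in spleen of mouse 1 and mouse 2, a difference of 0.43 ± 0.11 with a limma adjusted p of 0.277. Hadhb, a subunit of the mitochondrial trifunctional protein, had 2093 and 1983 in blood and 2579.9 and 2684 in spleen, a difference of 0.37 ± 0.11. Cpt1a, which admits long-chain fatty acids to mitochondria, had 1196 and 1289 in blood and 1052 and 1079 in spleen, a difference of -0.22 ± 0.11. Both tissues of all 3 genes were separate, and none passed over all genes.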
